A study of Mus musculus with 2 samples.

Results

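The sarcoplasmic reticulum genes that release and take up calcium in heart muscle were taken as a set of 10 genes, chosen by symbol, of 55536 mouse genes in the tables: Ryr2, Atp2a2, Atp2a1, Pln, Sln, Casq2, Hrc, Trdn, Asph and Jph2. All 10 symbols were found. Levels were read in 2 libraries of total RNA, stranded and with ribosomal RNA reduced, each made from 300 ng of heart RNA. Both hearts came from male mice 4 days old, with no treatment listed, and of the hybrid B6CASTF1/J, a cross of C57BL/6J with CAST/EiJ that carries 1 genome of each parent. They form 1 group with no second condition, so the values describe the level of each gene and how far heart 1 and heart 2 differed, without a test. The animals have different numbers but 1 donor record in the labels, so the spread between the libraries may be technical.

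In a heart muscle cell, calcium that enters through the surface membrane opens ryanodine receptors in the sarcoplasmic reticulum, and the calcium they release starts contraction. Calcium pumps of the SERCA family then return it to the store, held back by small membrane peptides that bind the pump, and calcium-binding proteins inside the store keep it ready at the release site. Junctophilins hold the store membrane close to the surface membrane, and triadin and junctin link the calcium-binding proteins to the channel. In hearts of newborn rodents this system is known to be still maturing.

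Both small pump inhibitors are encoded by a single short coding sequence, shown whole because all reads of these genes count towards 1 protein each. The start and stop codons are in capitals, and the sequences are those of GENCODE M21 transcripts on the mm10 (GRCm38) build. That of Pln (chr10:53343864-53344022, plus strand) has 159 bases, and that of Sln (chr9:53853473-53853568, plus strand) has 96.
Pln: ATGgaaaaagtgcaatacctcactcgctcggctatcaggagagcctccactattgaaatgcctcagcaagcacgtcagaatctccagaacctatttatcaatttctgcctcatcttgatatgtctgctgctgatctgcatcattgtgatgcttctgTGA
Sln: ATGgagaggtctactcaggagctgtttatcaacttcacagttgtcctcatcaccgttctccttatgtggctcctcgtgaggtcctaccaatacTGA

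The pump gene Atp2a2 has coding ends that replace each other, and these are shown because the transcript values below turn on them. The last 24 bases of the shared exon are in lower case and the coding bases that follow in capitals. The short end (14 bases, chr5:122454291-122454304, minus strand) belongs to the form known as SERCA2a, the form of heart muscle, and the long end (152 bases, chr5:122457151-122457302, minus strand) to SERCA2b, the form found in most tissues.
Atp2a2-202: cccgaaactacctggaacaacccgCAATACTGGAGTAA
Atp2a2-201: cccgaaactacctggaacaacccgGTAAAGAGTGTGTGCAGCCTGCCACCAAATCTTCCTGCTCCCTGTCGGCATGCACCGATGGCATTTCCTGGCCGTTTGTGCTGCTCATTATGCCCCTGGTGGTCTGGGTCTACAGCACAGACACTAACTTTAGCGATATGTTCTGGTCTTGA

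Triadin transcripts likewise part from each other after shared exons. Trdn-202 (capitals chr10:33200223-33200257, plus strand) and Trdn-208 (capitals chr10:33196126-33196172) end soon after they leave the shared exons, while Trdn-201 (capitals chr10:33233855-33233914) goes on for 1235 coding bases, of which the first 60 are in capitals.
Trdn-202: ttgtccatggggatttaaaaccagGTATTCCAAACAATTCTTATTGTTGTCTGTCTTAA
Trdn-208: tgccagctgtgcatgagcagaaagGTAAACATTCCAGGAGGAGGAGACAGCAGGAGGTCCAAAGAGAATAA
Trdn-201: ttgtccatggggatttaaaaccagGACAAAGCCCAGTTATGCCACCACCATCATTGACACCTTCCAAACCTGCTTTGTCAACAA

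Asph has 4 coding ends. The last 48 coding bases of 1 transcript of each are shown with the stop codon in capitals, all on the minus strand: Asph-202 at chr4:9453295-9453342, Asph-208 split over exons within chr4:9576966-9583851, Asph-206 at chr4:9621880-9621927 and Asph-217 at chr4:9630708-9630755.
Asph-202: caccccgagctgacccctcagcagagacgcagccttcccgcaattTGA
Asph-208: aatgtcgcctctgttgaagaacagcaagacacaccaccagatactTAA
Asph-206: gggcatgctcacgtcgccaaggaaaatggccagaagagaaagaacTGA
Asph-217: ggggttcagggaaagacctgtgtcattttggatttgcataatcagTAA

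The libraries held 31512596 and 35744013 expected counts on mouse genes, with spike-ins at 0.588% and 0.545% of all counts. After a filter on low counts 16271 genes were left, with a common biological coefficient of variation of 15.2% between the hearts. A gene is called expressed at a TPM (a level per transcript length, scaled to the library) of 1 or more in each heart. Of nuclear protein-coding genes 53.8% were expressed. General cardiomyocyte markers were expressed in 10 of 10 cases, with summed levels of 28395 and 26002 TPM. So were all 10 ventricular markers (15572 and 14801 TPM), all 10 atrial markers (2964 and 1773 TPM) and all 6 smooth muscle markers. Of 14 skeletal muscle markers 3 were expressed, with a sum of 14.4 and 13.1 TPM for the list. These were Mybpc2 (8.05 and 6.41 TPM), Tnni2 (2.83 and 2.77 TPM) and Myh8 (1.37 and 1.25 TPM). Myod1 was the 1 marker of the list at 0 in both hearts. In whole-heart RNA, fewer cells of a type and less RNA per cell cannot be told apart.

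Of the 10 genes, 9 were expressed, with a TPM of 1 or more in each heart, against 23.8% of all genes and 53.8% of nuclear protein-coding genes. Together they held 5008 and 5124 TPM, which was 0.511% ± 0.0079 of the TPM of mouse genes (SD, n = 2) and 1.41% ± 0.060 of their expected counts. By a second quantification of the same libraries, deposited as transcript tables with estimated counts, the share of TPM was 0.702% ± 0.030.

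**Figure D1:**
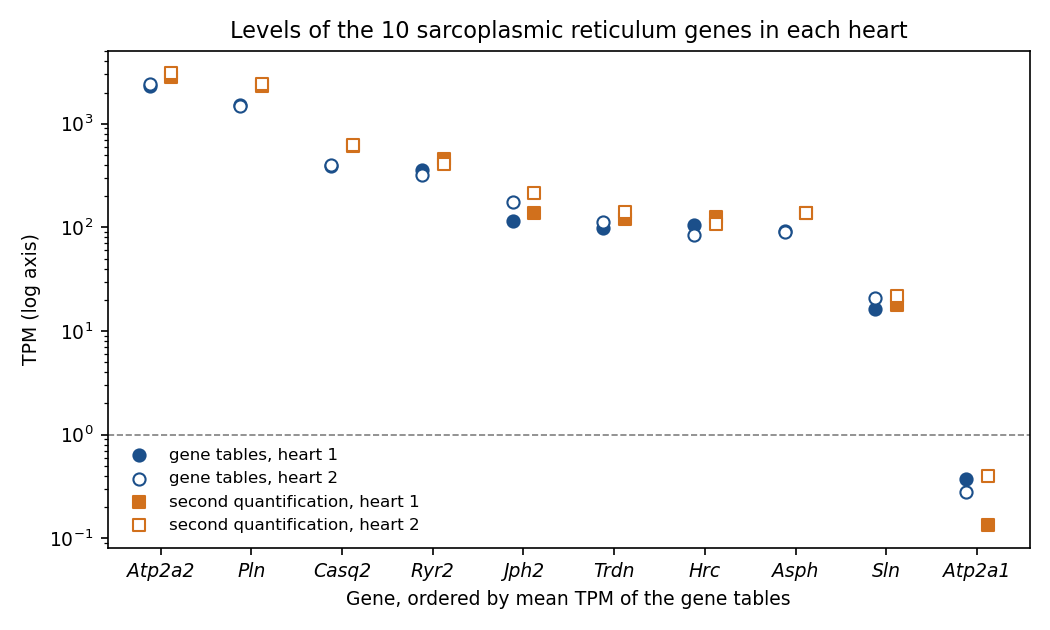
TPM on a log axis of the 10 genes in each heart, with circles for the gene tables and squares for the second quantification, filled for heart 1 and open for heart 2. The dashed line marks a TPM of 1, and Atp2a1 alone lies under it, at 0.37 and 0.28 TPM in the gene tables. The gene tables reach up to 2434 TPM, for Atp2a2 in heart 2. The second quantification runs from 0.134 TPM for Atp2a1 in heart 1 to 3061 TPM for Atp2a2 in heart 2.

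The uptake genes held both ends of the range, with Atp2a2 and Pln as the highest of the 10 genes and Sln and Atp2a1 as the lowest. Atp2a2 (chr5:122453513-122502225, minus strand), the SERCA2 pump of heart muscle, had 2314 TPM in heart 1 and 2434 TPM in heart 2, a mean of 2374 ± 84.5 (SD, n = 2). It ranked 11 among 22015 nuclear protein-coding genes by mean TPM and 15 by the second quantification. Pln (chr10:53337667-53345987, plus strand), which encodes phospholamban, the pump's inhibitor that phosphorylation relieves, had 1512 and 1487 TPM, a mean of 1499 ± 18.2 and rank 16. The hearts lay close together for both genes, and no value of Pln reached one of Atp2a2.

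Sarcolipin, encoded by Sln (chr9:53850164-53854560, plus strand), is a related pump inhibitor that in adult mice is known from atria and some skeletal muscles. It had 16.4 and 20.7 TPM from 485 and 728 counts, a mean of 18.6 ± 3.08 and rank 4250. Atp2a1 (chr7:126445858-126463108, minus strand), which encodes SERCA1, the pump of fast skeletal muscle, had 0.37 and 0.28 TPM. These levels rest on 11 counts in heart 1, or 0.349 CPM (counts scaled to the library) with an exact binomial 95% interval of 0.174 to 0.625, and on 18 counts in heart 2, or 0.504 CPM with an interval of 0.298 to 0.796. The intervals overlap and cover counting error only. The deposited TPM was the lower in heart 2 although its count was the higher, and the second quantification gave 0.134 and 0.401 TPM, so no order of the hearts is read for Atp2a1.

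Among the release genes, Ryr2 (chr13:11553102-12106945, minus strand), the cardiac ryanodine receptor through which calcium leaves the store, had 360 and 317 TPM, a mean of 338 ± 30.8 and rank 200. It is the longest of the 10 genes at 553844 nt, and with 105676 and 111691 expected counts it came next to Atp2a2 in counts, which had 223172 and 279074. Jph2 (chr2:163336242-163397993, minus strand), the junctophilin of heart muscle, had 116 and 175 TPM, a mean of 145 ± 41.6, the widest relative spread of the 9 expressed genes. Heart 2 lay above heart 1 for Jph2 and below it for Ryr2.

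Of the 4 genes for proteins inside the store or at its junction with the channel, the gene of cardiac calsequestrin had the highest level. Casq2 (chr3:102086415-102146514, plus strand), which encodes this main calcium buffer of the store, had 393 and 403 TPM, a mean of 398 ± 7.42 and rank 146. Both values of Casq2 lay above both values of Ryr2. Trdn (chr10:33080554-33476709, plus strand), which encodes triadin, had 98.0 and 114 TPM, a mean of 106 ± 11.1. Hrc (chr7:45335290-45338974, plus strand), which encodes a histidine-rich calcium-binding protein of the store, had 105 and 84.9 TPM, a mean of 94.7 ± 13.8. Asph (chr4:9448069-9669344, minus strand), a locus that encodes junctin, junctate and the aspartyl hydroxylase from different transcripts, had 92.9 and 89.3 TPM, a mean of 91.1 ± 2.55. Their ranks were 647, 733 and 770, and the range of Hrc overlapped those of both others, while both values of Trdn lay above both of Asph.

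The order by mean TPM was therefore Atp2a2, Pln, Casq2, Ryr2, Jph2, then Trdn, Hrc and Asph, with Hrc not set apart from either neighbour, then Sln and Atp2a1. In the second quantification the first 5 and last 2 places were the same, while Asph stood before Trdn and Hrc and its range overlapped those of Jph2 and Trdn. All 9 expressed genes were lower in the gene tables than in the second quantification in both hearts, as were 89.4% of all genes whose mean TPM reached 1 by either. The median log2 ratio of the gene tables over the second quantification was -0.45 over 15568 such genes. None of the 9 differed over 2-fold, against 3.9% of genes higher and 8.65% lower. Pln and Casq2 were lower by over 1.5-fold in both hearts, as were 25.2% of all genes. For Pln the means were 1499 TPM in the gene tables and 2382 TPM in the second quantification, and for Casq2 they were 398 and 615 TPM. As shares of each library's counts these genes did not differ by so much: the log2 ratio of the gene tables over the second quantification was 0.0093 and -0.0089 for Pln and -0.0071 and -0.014 for Casq2 in hearts 1 and 2. By this measure Sln was higher in the gene tables, at 0.36 and 0.45, as was Hrc, at 0.037 and 0.0040.

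Between the hearts, none of the 10 genes differed over 2-fold in scaled counts, against 3.06% of the 16271 filtered genes. All 10 had passed the filter. Jph2 was the 1 gene over 1.5-fold higher in heart 2, at a log2 ratio of 0.72 from 11555 and 20675 counts, against 4.22% of filtered genes, and none of the 10 was over 1.5-fold lower, against 8.09%. At the common coefficient of variation, the SD of such a log2 ratio between 2 libraries is 0.31. This SD leaves out counting error, so it is too small for Atp2a1, with 11 and 18 counts. Atp2a1 (0.52), Sln (0.47), Trdn (0.28), Atp2a2 (0.21), Casq2 (0.17), Pln (0.14) and Asph (0.09) followed with log2 ratios above 0, and Ryr2 (-0.04) and Hrc (-0.14) lay below. That made 8 of 10 higher in heart 2, with a median of 0.19, against 49.6% of filtered genes and a median of -0.0033. Atp2a1, for which no order of the hearts is read, is included in this tally and in those that follow. By the ratio of deposited TPM, where the median of all filtered genes was -0.13, 5 were higher and 5 lower, with Pln, Asph and Atp2a1 below 0. With scaling to the ERCC spike-ins 9 were higher, Ryr2 among them at 0.008. Under this scaling the median of all filtered genes was 0.041, above the value of Ryr2. By the TPM of the second quantification, a measure added after the data were seen, 8 were higher. There the median of all filtered genes was -0.11, and Atp2a1 was over 2-fold higher at 1.10.

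**Figure D2:**
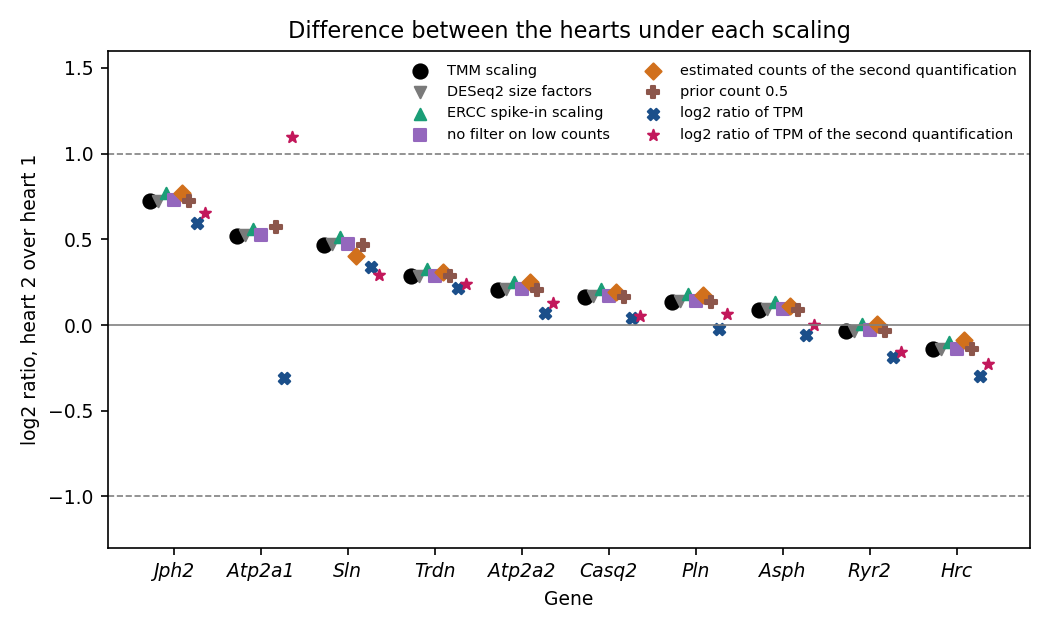
Log2 ratio of heart 2 over heart 1 for the 10 genes under 8 settings, with black circles for TMM-scaled counts and other symbols for the alternatives. Dashed lines mark 2-fold. Jph2 lies between 0.59 and 0.77 throughout. Atp2a1, with few counts, runs from -0.31 with TPM to 1.10 with TPM of the second quantification, and has no value from the counts of the second quantification.

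Marker lists were set beside these ratios. The 10 atrial markers had a median log2 ratio of -0.10 in heart 2 over heart 1, with 8 lower, against 47.3% of nuclear protein-coding genes, and 1 over 2-fold apart, Nppa, which had 1620 and 665 TPM in hearts 1 and 2. The 6 smooth muscle markers had a median log2 ratio of 0.40, with 5 higher and 1 lower, Cnn1 at -0.11. Their summed levels of 515 and 798 TPM were led by Acta2 with 341 and 631 TPM. Next in level were Smtn, with 92.8 and 79.1 TPM, and Tagln, with 43.2 and 51.9 TPM, so the rise of the sum lay in Acta2. The 10 ventricular markers had a median of 0.07, with 8 higher and 2 lower. The 10 general cardiomyocyte markers had a median of -0.07, with 4 higher and 6 lower. Of all filtered genes 49.6% were higher in heart 2. In the smooth muscle, ventricular and general cardiomyocyte lists no gene was over 2-fold apart, against 3.06% of filtered genes. The median absolute log2 ratio of all filtered genes was 0.19. The part of these differences in the ratios of Jph2 and Sln was not tested.

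Within each heart, ratios of TPM between genes do not depend on the scaling of the library, and 17 pairs were taken (log2, pseudocount 0.1, mean ± SD, n = 2). The first gene of the pair was higher in both hearts in 11 pairs and the second in 6. The pump and its inhibitor stood near each other in TPM: Atp2a2 over Pln was 0.66 ± 0.07 in the gene tables and 0.30 ± 0.04 in the second quantification. In expected counts, which are not divided by length, Atp2a2 had 223172 and 279074 and Pln had 50627 and 60293. Sarcolipin lay far below both, with Atp2a2 at 128 times Sln and a log2 ratio of Pln over Sln of 6.34 ± 0.26. Ryr2 over Atp2a2 was -2.81 ± 0.18, so the TPM of Ryr2 was 0.142 times that of Atp2a2. All transcripts of each gene enter this ratio, and retained-intron transcripts held 22.5% and 19.4% of the TPM of Ryr2. Casq2 over Ryr2 was 0.24 ± 0.16 in the gene tables and 0.51 ± 0.15 in the second quantification.

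The junctional genes were lower than the genes they are set beside. Jph2 over Ryr2 was -1.25 ± 0.55, a spread that follows from the opposite order of the hearts for these genes. Trdn over Casq2 was -1.91 ± 0.12 and Hrc over Casq2 was -2.08 ± 0.24. Asph over Trdn was -0.21 ± 0.19 in the gene tables and 0.092 ± 0.17 in the second quantification, where the hearts took opposite sides, so neither gene is called higher. In the other 16 pairs the second quantification put the same gene on top in both hearts.

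The pump, receptor, calsequestrin and junctophilin genes among the 10 were higher than the relatives they were paired with. Atp2a2 exceeded Atp2a1 by 12.46 ± 0.27 and Atp2a3, the pump of blood and endothelial cells, by 9.20 ± 0.44. With a pseudocount of 1 the Atp2a1 value was 10.81, so its size is set by the pseudocount. Ryr2 exceeded the skeletal muscle receptor Ryr1 by 11.35 ± 0.29 (8.36 with a pseudocount of 1) and the widely expressed Ryr3 by 6.77 ± 0.45. Casq2 exceeded the skeletal muscle calsequestrin Casq1 by 5.99 ± 0.46, and Jph2 exceeded Jph1 by 4.37 ± 0.05.

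**Figure D3:**
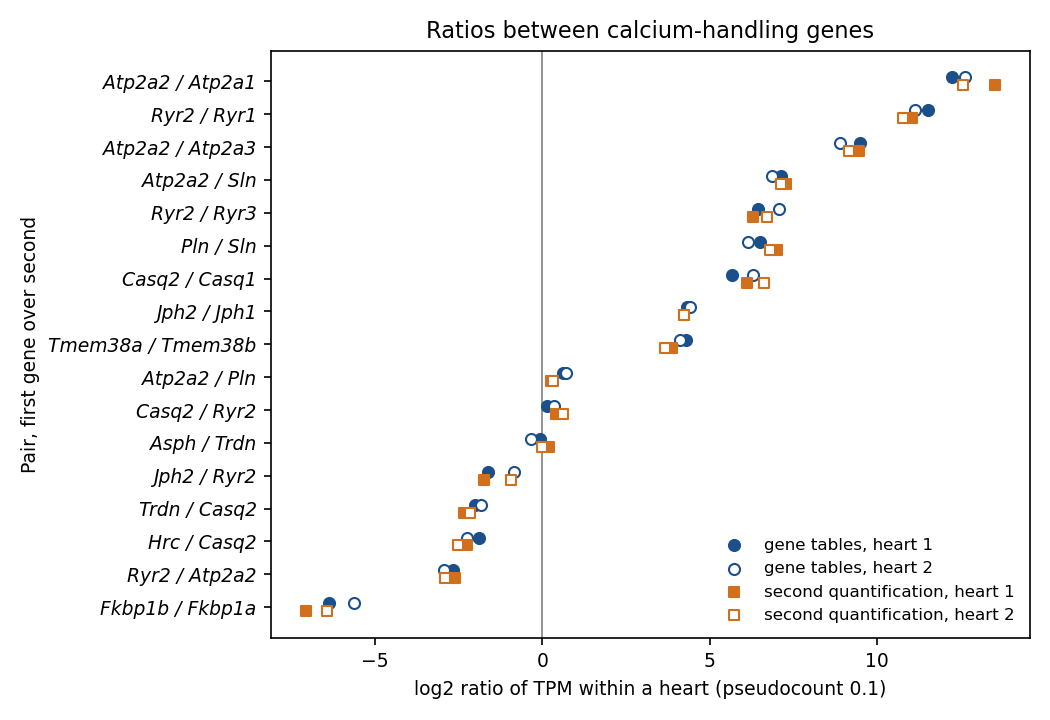
Log2 ratio of TPM within a heart for 17 pairs of calcium-handling genes, with circles for the gene tables and squares for the second quantification, filled for heart 1 and open for heart 2. The pairs run from 12.46 for Atp2a2 over Atp2a1 down to -6.02 for Fkbp1b over Fkbp1a (means of the gene tables), and Asph over Trdn is the pair that crosses 0 between the quantifications.

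A further list held 24 other sarcoplasmic reticulum calcium genes. Of these 19 were expressed, against 53.8% of nuclear protein-coding genes. The filter passed 19, of which 12 were higher and 7 lower in heart 2, with a median log2 ratio of 0.06 and none over 2-fold. Of all filtered genes 49.6% were higher in heart 2 and 3.06% were over 2-fold apart. Srl, which encodes the store's glycoprotein sarcalumenin, led with 490 and 492 TPM, above Casq2. Calr, the calcium buffer calreticulin, had 168 and 134 TPM, and Calu, a calcium-binding protein of the secretory pathway, had 155 and 148 TPM. Both means lay near that of Jph2.

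Partners of the release channel differed widely in level. Fkbp1a, the immunophilin of most tissues, had 196 and 191 TPM, while Fkbp1b, the related protein that binds Ryr2, had 2.23 and 3.71 TPM, a log2 ratio of Fkbp1b over Fkbp1a of -6.02 ± 0.53. S100a1, a calcium sensor of muscle that acts on the channel and the pump, had 150 and 132 TPM, and Sri, which encodes sorcin, had 56.0 and 65.0 TPM. The potassium channel of the store that balances charge during release, Tmem38a, had 99.5 and 92.7 TPM and exceeded Tmem38b by 4.22 ± 0.13. Inositol trisphosphate receptors, the other release channels, were led by Itpr1 with 32.9 and 30.9 TPM, before Itpr2 with 20.5 and 16.2 TPM and Itpr3 with 3.56 and 3.14 TPM.

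The 5 genes of the list that were not expressed were Ryr1, Jph3, Jph4, Mrln and Jsrp1. Ryr1 had a mean of 0.03 TPM, and Jph3 and Jph4 had 0.01 and 0.04. Mrln, the skeletal muscle pump inhibitor myoregulin, had 0.15, and Jsrp1 had 0.57 TPM. Casq1 and Jph1, also known from skeletal muscle, were expressed, with 7.65 and 4.99 TPM for Casq1 and 5.65 and 8.15 TPM for Jph1. Strit1, which encodes the DWORF peptide that relieves pump inhibition and is listed under an older symbol, had 11.7 and 8.92 TPM in the gene tables and was listed at 0 in the second quantification. Ppp1r3a, a phosphatase subunit that binds glycogen, had 18.2 and 11.5 TPM, and Stim1, the store's calcium sensor, had 9.48 and 10.1 TPM. In scaled counts the list's log2 ratios between the hearts ran from -0.79 for Ryr3 (4.02 and 2.24 TPM) to 0.73 for Fkbp1b.

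The 10 genes have 65 annotated transcripts, and for 8 of the 10 both quantifications gave the largest share of TPM to the same transcript. The exceptions were Pln and Atp2a1. For Atp2a2, the short-ended Atp2a2-202, with 998 codons, held 74.6% and 75.5% of the gene's TPM in hearts 1 and 2, a mean of 75.0% ± 0.63. The long end, carried by Atp2a2-201 with 1044 codons and by a transcript typed as a target of nonsense-mediated decay, held 23.8% and 23.4%, a mean of 23.6% ± 0.30. The short end thus had 3.18 ± 0.067 times the TPM of the long one, and 4.41 ± 0.13 times in the second quantification. The difference between the quantifications was larger than that between the hearts, and both put the short end above the long one in each heart.

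**Figure D4:**
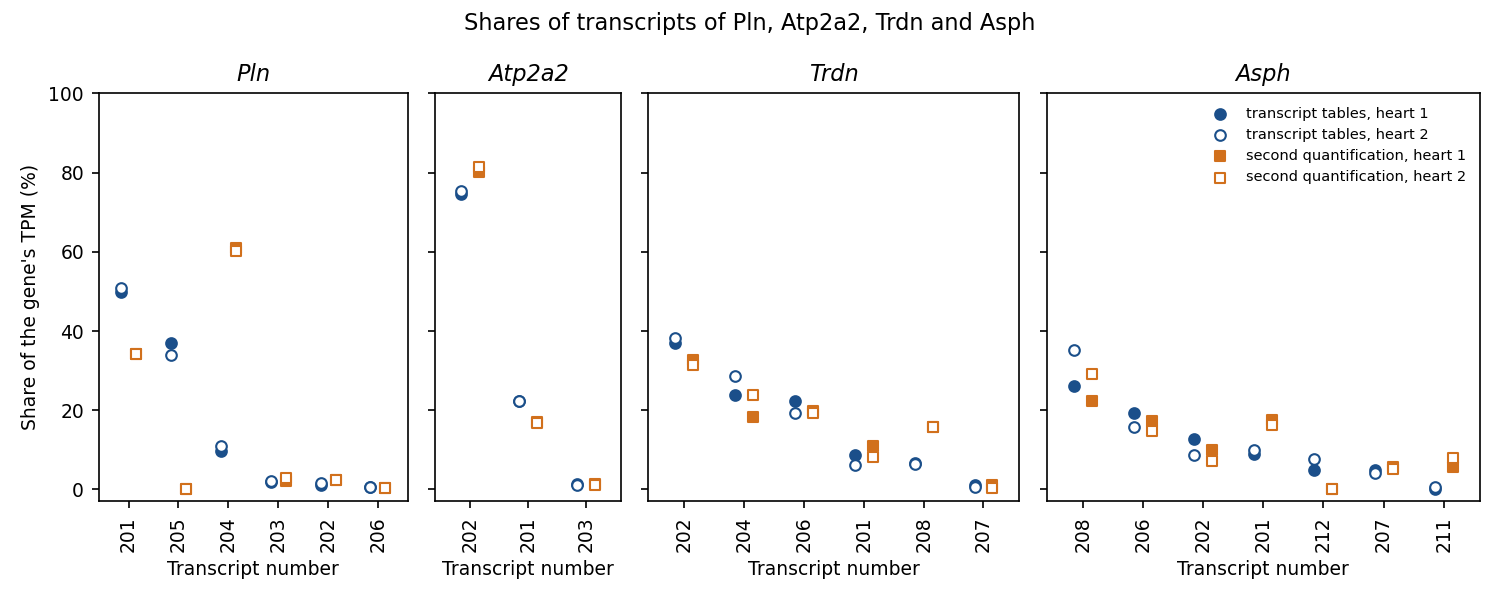
Share of a gene's TPM held by transcripts of Pln, Atp2a2, Trdn and Asph, with circles for the transcript tables that match the gene tables and squares for the second quantification, filled for heart 1 and open for heart 2. All 6 Pln and 3 of the Atp2a2 transcripts are drawn, with 6 of Trdn and 7 of Asph. The hearts lie close together for Pln while the quantifications part, with Pln-204 at about 10.2% in the first and 60.6% in the second.

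All 6 Pln transcripts carry the same coding sequence of 159 bases, so their shares do not alter the protein. The shares do enter the TPM of Pln, its rank and its ratios, since TPM weighs a count on a shorter transcript more. Pln-201, of 2334 nt, held 50.3% ± 0.71 of Pln TPM in the first tables and 34.3% in the second quantification. Pln-205, of 531 nt, held 37.0% and 33.9% in hearts 1 and 2, but 0 in the second quantification. Pln-204, of 771 nt, held 9.6% and 10.9%, and 60.6% on average in the second quantification. Sln has 1 transcript, and Jph2-201 held 100% of Jph2.

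Triadin was divided among more forms. Trdn-202, the short form of 293 codons, held 37.1% and 38.2%, a mean of 37.6% ± 0.76, and 32.0% in the second quantification. Trdn-201, the long form of 693 codons, held 8.60% and 6.24%, a mean of 7.42% ± 1.67, and 9.61% in the second quantification. Short triadins are known as the main protein forms of heart muscle and long ones of skeletal muscle. Trdn-208, with 277 codons, held 6.51% ± 0.28 and 15.8% in the second quantification. A transcript with an incomplete end, Trdn-206, held 20.8% ± 2.28, and its coding form cannot be told from the annotation. The retained-intron transcript Trdn-204 held 23.9% and 28.5%, a mean of 26.2% ± 3.27. By expected counts, which weigh long transcripts more, Trdn-201 held 20.3% ± 3.97 and Trdn-202 25.3% ± 1.27. By the estimated counts of the second quantification the order turned, with 23.7% ± 4.12 for Trdn-201 and 15.9% ± 0.19 for Trdn-202, and Trdn-208 held the most at 35.5% ± 1.17. The order of these forms by reads therefore differs between the quantifications.

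For Asph, 12 of 20 transcripts have a complete coding sequence, with 4 coding ends among them. The end shown for Asph-208, whose 5 transcripts have intermediate length, held 33.0% and 41.7% of Asph TPM, a mean of 37.4% ± 6.12. The end shown for Asph-206 held 28.2% and 25.7%, a mean of 27.0% ± 1.78. The end shown for Asph-202, which belongs to the 3 longest coding sequences, the hydroxylase being the longest product of the locus, held 17.6% and 17.2%, a mean of 17.4% ± 0.34. The end shown for Asph-217 held 5.68% ± 1.29. The second quantification gave 32.9% each to the Asph-208 and Asph-206 ends, 15.3% to the longest forms and 7.46% to the last, so per length the longest forms stayed under the Asph-208 and Asph-206 ends in both. By expected counts the longest forms held the most, at 40.6% ± 1.14, against 34.1% ± 5.36 for the Asph-208 end and 13.97% ± 1.32 for the Asph-206 end, and the second quantification's counts gave 40.8%, 32.7% and 15.7%. The annotation does not say which transcripts encode junctin or junctate, and none is named here as either.

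For Ryr2, Ryr2-201 with 4966 codons held 67.7% ± 0.61 of TPM but 93.0% ± 0.055 of expected counts, since the other transcripts with counts are much shorter. Ryr2-202, of 16813 nt against 16814 nt for Ryr2-201 and with as many codons, had 0 expected counts in both hearts. The 9 retained-intron transcripts of Ryr2 held 22.5% and 19.4% of its TPM, at 81.1 and 61.3 TPM, a log2 ratio of TPM of -0.40 in heart 2 over heart 1, against -0.15 for the coding transcripts. The second quantification gave -0.32 and -0.11. In the first tables the same 2 ratios were -0.45 and 0.08 for Atp2a2. They took the opposite order for Trdn, at 0.47 and 0.16, and for Casq2, at 0.28 and 0.03. Ryr2-203, a shorter coding transcript, held 9.51% ± 0.83. Casq2-201 held 98.9% ± 0.066 in the first tables and 77.9% in the second quantification, which put 21.4% on a processed transcript. Hrc-201 held 97.7% ± 1.62.

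The annotation also places 10 other genes inside these genes on the same strand, of which 3 are processed pseudogenes. Of the 10, 6 passed the filter, and all 6 were lower in heart 2, with log2 ratios from -1.17 to -0.04. The 6 are of the classes TEC (stretches with evidence of transcription that await proof) and sense-intronic. Of the 1023 filtered genes of these classes 89.1% were lower in heart 2, against 47.3% of nuclear protein-coding genes, so the 6 did as most of their classes did. Gm47494 in Ryr2 had 5.41 and 2.18 TPM, and Gm43359 in Atp2a2 had 19.5 and 11.5 TPM. Their hosts lay at -0.04 for Ryr2 and 0.21 for Atp2a2.

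**Figure D5:**
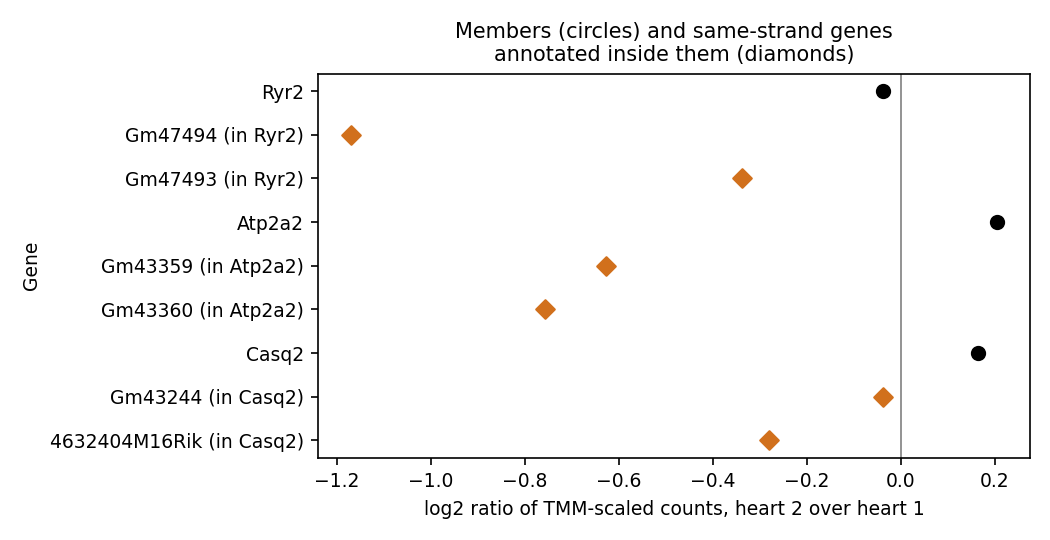
Log2 ratio of TMM-scaled counts, heart 2 over heart 1, for Ryr2, Atp2a2 and Casq2 (circles) and for the 6 filtered genes annotated inside them on the same strand (diamonds). Each diamond lies left of its host, down to -1.17 for Gm47494 in Ryr2; Gm43244 in Casq2 lies at -0.04.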

How the data were processed

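Total RNA of 2 hearts of 1 group was analysed, 1 library each. Per the file headers, the authors' tables of genes and of transcripts give expected counts, TPM, lengths and effective lengths in nucleotides, in columns named as RSEM writes them. Each library also has a deposited table of estimated counts and TPM by transcript, with kallisto's column names, which was summed per gene. Notes deposited beside the files give mm10 and GENCODE M21. Which tools and options made the tables is not given in the sources used here. TPM was scaled by the authors over all rows, spike-ins included. Counting is not stated to use strand, so reads of overlapping antisense genes may be shared.

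Rows that name no gene held 2 and 4 counts and, with the spike-ins, were left out of library sizes. Expected counts were rounded, filtered with filterByExpr and scaled by TMM in edgeR 4.0.16 (R 4.3.3), with a prior count of 2, and the step was tested on simulated data. DESeq2 1.42.0 size factors were an alternative scaling. Other steps used Python 3.11.15, pandas 2.3.3, NumPy 2.4.6, SciPy 1.17.1 and matplotlib 3.10.9. With 2 libraries of 1 group, an exact two-sided sign-flip test cannot give a p below 0.5, so none is printed. The exact binomial intervals of counts are at the 95% level.

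Transcript shares are a transcript's TPM over that of its gene. Transcripts with 1 stop codon position share a coding end. Coding sequences were built from the annotation's coding features and the GENCODE M21 transcripts. No protein sequence was used here. Neighbours in the order of levels overlap where their ranges over the hearts do. The genes, lists and pairs were chosen with earlier results of these data known. Named are all 10 genes, those of the list and pairs, leading markers and transcripts. Myod1 and the genes inside or across the 10 genes were named after their values were seen.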

Additional observations from a re-analysis of the deposited data

How the results depend on the processing

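No paired analysis was possible because the libraries form 1 group. Against SDs over 2 libraries, which are themselves imprecise, the second quantification moved several ratios and shares. The log2 ratio of Atp2a2 over Atp2a1 became 13.06 (10.81 with a pseudocount of 1), Atp2a2 over Pln 0.30, Pln over Sln 6.91 and Casq2 over Ryr2 0.51, and Asph over Trdn turned to 0.092. Shares of TPM became 80.8% for Atp2a2-202, 15.3% for the longest Asph end, 32.0% for Trdn-202, 66.7% for Ryr2-201 and 34.3% for Pln-201. Over protein-coding transcripts alone they were 77.0% for Atp2a2-202, 19.0% for the longest Asph end, 51.1% for Trdn-202 and 85.7% for Ryr2-201. Mean TPM moved by more than its SD for 7 of 10 genes under the second quantification, and for 10 of 10 when scaled to nuclear protein-coding genes. Values from 1 heart alone lay within 1 SD of the mean, as they must with 2 values. For the log2 ratios between the hearts, no setting moved a gene by over 0.31 except TPM for Atp2a1, at -0.31, and TPM of the second quantification, at 1.10. Under the last, an alternative chosen after seeing the data, 1 gene instead of 0 was over 2-fold apart. Atp2a1 had no count ratio in the second quantification, where it did not pass the filter.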

Other observations

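Genes on the other strand overlap several of the 10 genes. Within Trdn, the antisense RNA D830005E20Rik had 20.9 TPM in heart 1 and 18.5 TPM in heart 2, against 98.0 and 114 TPM for Trdn. Cep85l, a protein-coding gene that spans Pln on the other strand, had 7.38 and 8.84 TPM, and Rabep2, which overlaps the end of Atp2a1, had 7.18 and 4.96 TPM, above both values of Atp2a1. Whether reads were shared across strands was not tested. The short coding transcript Hrc-202 held 3.42% of Hrc TPM in heart 1 and 1.12% in heart 2, and the second quantification gave 3.19% and 1.17%.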
